A study of Mus musculus with 3 samples.

Results

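Cells picked as basophils and mast cells were 137 of the 36386 cell barcodes that passed a quality filter in 3 single-cell libraries of tumour-infiltrating leukocytes. There were 77 in the library labelled DU101, 28 in that labelled DU102 and 32 in the control. They were picked by their RNA: at least 3 UMIs in sum of Mcpt8, Cpa3, Ms4a2 and Gata2, with at least 2 of these genes detected, at most 4 UMIs in sum of the neutrophil precursor genes Elane, Mpo and Prtn3, and no UMI of Cd3e, Cd79a or C1qa. A UMI (unique molecular identifier) marks 1 captured RNA molecule. Since these 10 genes chose the cells, the levels of the 4 required genes describe the cells and are no finding about them. Of the 137 cells, 24 lay outside the mast and basophil ranges described below, and some of these carried RNA of other cell types.

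Live CD45+ cells had been sorted from fresh liver tumours of MYC-ON mice, on the C57BL6 strain and 18 weeks old in every group, and sequenced with 10x 3' v3 chemistry. The DU101 and DU102 groups are named for the agent given, and the control library carries no agent in its label. The dose, the duration, the nature of both agents, the number and sex of the animals, and the promoter that drives MYC were not given in the sources used here. Each group is a single library, so no p-value is given, the spread between animals is unknown, and every interval below covers counting error only. Both treated libraries are set against the same control cells, so their ratios to the control are not independent.

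The filter kept 14257 of 15686 barcodes in DU101, 11710 of 13650 in DU102 and 10419 of 12639 in the control, at a minimum of 200 genes and a maximum of 10% mitochondrial UMIs. The libraries held between 91013198 and 106604935 UMIs. Across libraries, 136 barcode sequences occurred more than 1 time, and 1 of the 137 cells had such a sequence. A doublet caller marked 1.98 to 2.53% of the barcodes of a library and none of the 137 cells, and no cell was removed on that ground. These shares lay below the expected doublet rates, which were 11.4% for DU101, 9.37% for DU102 and 8.34% for the control. Whether the 137 cells include doublets that the caller missed was not tested.

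The control library stood apart in sex-linked RNA. Xist, the RNA that silences an X chromosome in females, was found without any Y-linked transcript in 0 of 77 DU101 cells, 0 of 28 DU102 cells and 22 of 32 control cells. Y-linked transcripts without Xist were found in 29 DU101 cells, 10 DU102 cells and 4 control cells, and 1 control cell held both. Treatment and this difference cannot be told apart when either treated library is set against the control. The comparison of DU101 with DU102 is free of it, since Xist was at 0 in these cells of both libraries. Of the control cells placed in the mast and basophil ranges described below, 1 of each had Y-linked RNA and no Xist, too few for a comparison within 1 sex.

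Basophils and mast cells are rare granulocytes that share the high-affinity IgE receptor, the histamine-forming enzyme histidine decarboxylase and a dependence on the transcription factor GATA2. Mast cells settle in tissues, need the receptor tyrosine kinase KIT and store chymases, tryptases and carboxypeptidase A3 in their granules, whereas basophils mature in the bone marrow, circulate, and in mice carry the proteases MCPT8 and PRSS34. Crosslinked IgE makes both release their granules and produce cytokines and chemokines.

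Because GATA2 binds the core letters GATA, the start regions of 5 genes on which the results turn are shown, each from 250 bases before to 50 after the start of the gene, as RefSeq gives them for GRCm38.p6, with the motifs AGATAA and TGATAA (or their reverse complements TTATCT and TTATCA) in capitals. Cpa3, carboxypeptidase A3, lies at chr3:20242132-20242431 on the minus strand with 1 motif 46 bases upstream of the start. Ms4a2, the beta chain of the IgE receptor, lies at chr19:11623670-11623969 on the minus strand with 3 motifs between 224 and 11 bases upstream. Mcpt4, a mast cell chymase, lies at chr14:56062261-56062560 on the minus strand with 1 motif 103 bases upstream. Mcpt8, the basophil serine protease, lies at chr14:56085148-56085447 on the minus strand and holds no such motif in this window. Prss34, the other basophil protease, lies at chr17:25298144-25298443 on the plus strand with 1 motif 31 bases upstream.
Cpa3: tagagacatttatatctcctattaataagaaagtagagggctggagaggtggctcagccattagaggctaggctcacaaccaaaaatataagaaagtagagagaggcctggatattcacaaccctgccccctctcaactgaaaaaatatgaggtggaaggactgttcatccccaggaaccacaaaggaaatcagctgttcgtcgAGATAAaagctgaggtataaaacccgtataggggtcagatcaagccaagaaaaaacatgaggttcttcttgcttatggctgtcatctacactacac
Ms4a2: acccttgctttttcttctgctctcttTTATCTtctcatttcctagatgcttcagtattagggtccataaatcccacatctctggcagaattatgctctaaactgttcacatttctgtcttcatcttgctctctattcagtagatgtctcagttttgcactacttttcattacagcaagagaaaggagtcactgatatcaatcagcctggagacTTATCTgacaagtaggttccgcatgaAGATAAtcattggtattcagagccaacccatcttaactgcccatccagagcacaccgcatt
Mcpt4: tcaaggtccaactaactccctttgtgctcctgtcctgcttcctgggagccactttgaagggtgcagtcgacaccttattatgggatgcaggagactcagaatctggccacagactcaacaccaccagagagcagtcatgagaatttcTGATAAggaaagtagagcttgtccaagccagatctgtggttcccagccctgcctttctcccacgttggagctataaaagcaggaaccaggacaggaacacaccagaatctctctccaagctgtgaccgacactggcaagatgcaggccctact
Mcpt8: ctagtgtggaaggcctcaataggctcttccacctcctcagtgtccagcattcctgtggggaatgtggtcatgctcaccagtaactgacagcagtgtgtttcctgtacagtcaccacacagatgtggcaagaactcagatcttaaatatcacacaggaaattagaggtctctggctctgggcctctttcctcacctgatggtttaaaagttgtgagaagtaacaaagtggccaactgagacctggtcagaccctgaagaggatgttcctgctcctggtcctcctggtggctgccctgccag
Prss34: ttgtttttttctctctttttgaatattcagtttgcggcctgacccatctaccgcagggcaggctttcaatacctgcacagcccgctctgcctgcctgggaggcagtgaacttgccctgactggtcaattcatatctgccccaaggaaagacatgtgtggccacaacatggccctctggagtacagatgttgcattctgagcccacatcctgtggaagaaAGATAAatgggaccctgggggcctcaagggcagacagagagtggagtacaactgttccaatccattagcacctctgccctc
The motif, searched on both strands, was found in 9 of 20 matched genes (45%) among the 24 genes formed by the 5 label markers and the 20 genes that set the cells apart most, with Cd200r3 on both lists, against 21% of 27025 genes. The general E-box CANNTG was found in 16 of the 20 genes, against 75% of all genes, and its forms CATGTG and CACGTG in 5, against 22.7%. A match describes letters only and shows no binding.

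Of 339 barcodes that reached the required sum, 216 had at least 2 of the 4 genes, 49 of these exceeded the limit on Elane, Mpo and Prtn3, and 30 more carried Cd3e (13), Cd79a (3) or C1qa (16), some of them more than 1 of these. That last step removed 19 barcodes in DU101, 4 in DU102 and 7 in the control, and 16 of the 30 had mast cell proteases at the level used below. Just inside the limit, 7 cells had a sum of 3 to 5 UMIs, 6 of them in DU101 and 1 in the control, and just outside it 8 barcodes that met every other criterion had a sum of 2, 7 in DU101 and 1 in the control. The sum had a median of 54 UMIs in DU101 cells, 27 in DU102 cells and 46.5 in control cells, so that most cells lay far from the limit. The cells held a median of 3866 UMIs in DU101, 3934 in DU102 and 5251.5 in the control, with 10, 7 and 0 cells under 2000 UMIs in the same order of libraries.

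The label was borne out by genes that the choice did not use. Among the 20 genes with the highest ratio to all other kept cells in every library were the IgE receptor alpha chain Fcer1a, the mast cell receptors Mrgprb1 and Mrgprb2, the chymases Mcpt4 and Cma1, the tryptases Tpsb2 and Tpsab1, tryptophan hydroxylase Tph1, the IL-33 receptor Il1rl1, the basophil protease Prss34, the steroid side-chain cleavage enzyme Cyp11a1 and the label marker Cd200r3. Fcer1a stood at 1897.3 CPM in DU101 cells, 1835.3 CPM in DU102 cells and 1119.6 CPM in control cells, where CPM is the summed UMIs of a gene scaled to a total of 1000000 UMIs over the same cells. All other kept cells had 3.19, 1.19 and 1.66 CPM of Fcer1a in the same order of libraries. It was detected in 65 of 77, 24 of 28 and 26 of 32 cells of DU101, DU102 and the control.

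The cells fell into ranges by their other proteases. A mast range was set at 3 or more UMIs of Mcpt4, Cma1, Tpsb2, Tpsab1, Mrgprb2, Mcpt1 and Mcpt2 with at least 2 of these genes, and held 72 cells with 11 to 1784 such UMIs (median 432.5). A basophil range needed Mcpt8 and at least 1 UMI of Cd200r3, Il4, Il6, Il13 or Itga2 outside the mast range, and held 41 cells, none with more than 1 mast-type UMI. No cell had 2 to 4 mast-type UMIs and 1 cell outside both ranges had 10, so few cells lay near the mast limit, while 10 of the 41 basophil-range cells had only 1 or 2 UMIs of Mcpt8. A progenitor range (at least 2 UMIs of Cd34, Kit, Flt3, Sox4 and Muc13 without Cd200r3, Il4, Il6 or Il13) held 4 cells, and 20 cells fitted no range. These are ranges of counts and not cell types, and the genes that set them are given as description.

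**Figure D1:**
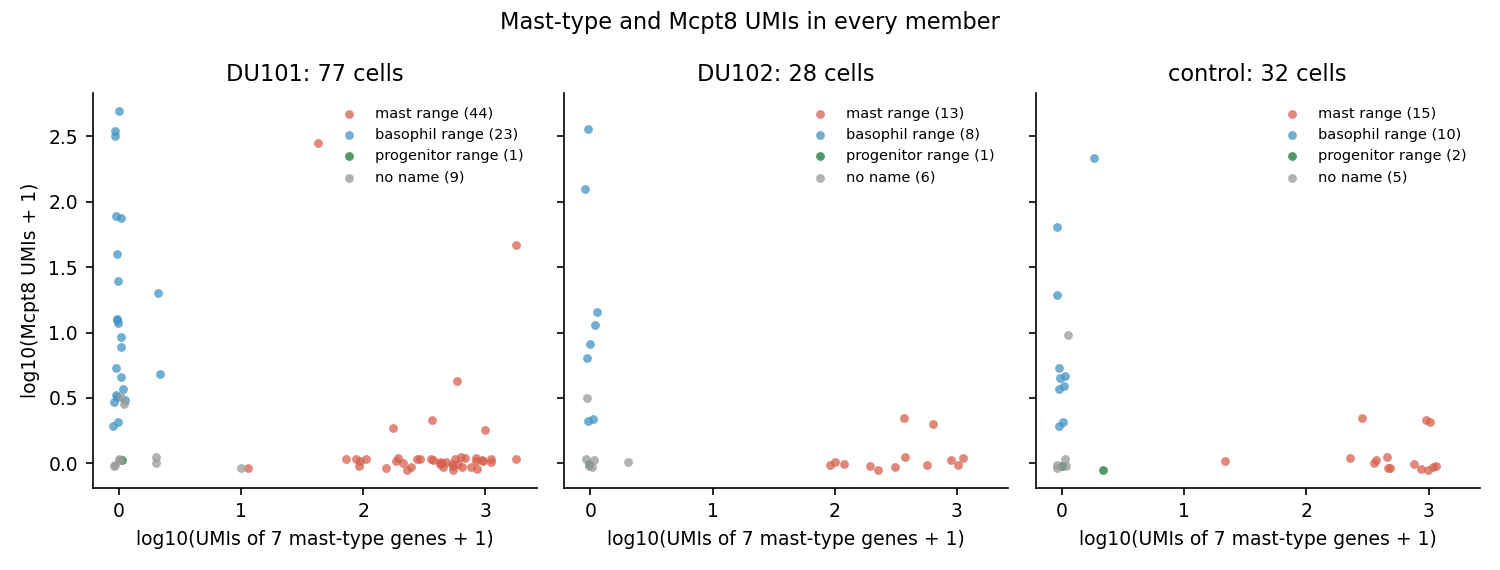
Each dot is 1 of the 137 cells, by the log10 of its UMIs of the 7 mast-type genes plus 1 (horizontal axis) and the log10 of its Mcpt8 UMIs plus 1 (vertical axis), with a small jitter. Mast-range cells lie at 11 to 1784 mast-type UMIs and basophil-range cells at 0 or 1; 1 DU101 mast-range cell with 301 Mcpt8 UMIs lies apart.

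Mast-range cells were more frequent in DU101 than in either other library. They were 44 of 14257 kept barcodes in DU101, a share of 0.3086% (exact Clopper-Pearson 95% interval 0.2243 to 0.4141%). In DU102 they were 13 of 11710, or 0.111% (0.05912 to 0.1898%), and in the control 15 of 10419, or 0.144% (0.0806 to 0.2373%). The DU101 share was 2.14 times the control share (95% interval of a ratio of Poisson counts 1.17 to 4.15) and 2.78 times the DU102 share (1.47 to 5.63). The DU102 share was 0.771 times the control share, with an interval that spans 1 (0.338 to 1.74).

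Basophil-range cells had the same order of shares with wider intervals. They made up 0.1613% of DU101 barcodes (23 cells), 0.06832% of DU102 barcodes (8 cells) and 0.09598% of control barcodes (10 cells). The DU101 share was 1.68 times that of the control, an interval of 0.769 to 3.96 that spans 1, and 2.36 times that of DU102 (1.02 to 6.11). The DU102 share was 0.712 times that of the control (0.244 to 2.00). For all 137 cells, the shares were 0.5401% in DU101, 0.2391% in DU102 and 0.3071% in the control, with ratios of 1.76 (1.15 to 2.75) for DU101 over the control, 0.779 (0.452 to 1.33) for DU102 over the control and 2.26 (1.45 to 3.62) for DU101 over DU102. The intervals of the make-up overlapped, as the mast range held 57.14% (45.35 to 68.37%) of the DU101 cells, 46.43% (27.51 to 66.13%) of the DU102 cells and 46.88% (29.09 to 65.26%) of the control cells. These are shares of sorted barcodes, and numbers of cells per tumour were not measured.

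**Figure D2:**
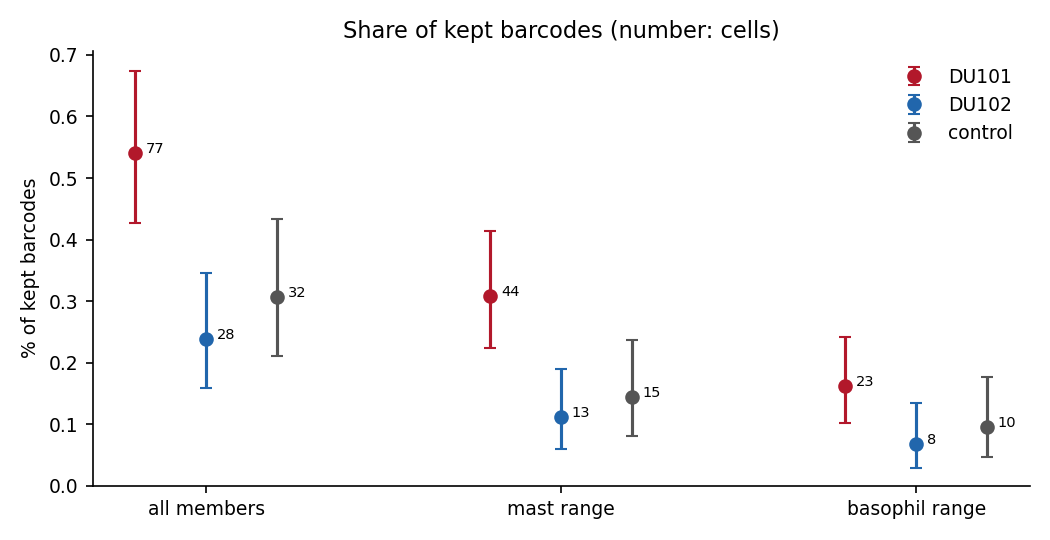
Share of kept barcodes in % (vertical axis) for all 137 cells, the mast range and the basophil range in DU101, DU102 and the control, with exact 95% binomial intervals and the number of cells beside each point. DU101 is highest in each set, and the intervals of DU102 and the control overlap throughout.

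Mast-range cells carried the connective tissue type of mast cell proteases in every library, which is description because Mcpt4, Cma1 and the tryptases helped set the range. The large chymase and carboxypeptidase genes differed little between libraries. Mcpt4 had a median of 199 UMIs per cell (1 to 900) in 44 DU101 cells, 148 (1 to 382) in 13 DU102 cells and 206 (6 to 422) in 15 control cells, and no cell lacked it. Its summed level was 45650.5 CPM in DU101, 40451.9 CPM in DU102 and 37341.0 CPM in the control, a ratio of 1.22 (1.18 to 1.27) for DU101 over the control. Cma1, the other main chymase, stood at 33462.7 CPM in DU101, 26480.1 CPM in DU102 and 30239.6 CPM in the control. Cpa3, which the choice of cells used, stood at 21453.7, 19182.0 and 19373.1 CPM in DU101, DU102 and the control. None of these 3 genes reached a ratio of 1.5 in any comparison, and the cells of the 3 libraries overlapped in all of them.

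In T cell barcodes, which should lack these genes (at least 1 UMI of Cd3e, none of the 4 required genes, thinned to 2000 UMIs), Mcpt4 was found in 1.5% of 3674 DU101 barcodes, 0.372% of 2685 DU102 barcodes and 0.11% of 1814 control barcodes. Cma1 was found in 1.61, 0.41 and 0.496% of the same barcodes. Before thinning, the median depth was 4473 UMIs in the DU101, 5191.5 in the DU102 and 6305 in the control T cell barcodes, and 4365, 3796 and 5195 UMIs in the mast-range cells of DU101, DU102 and the control. Mast-range cells held at least 11 mast-type UMIs each.

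**Figure D3:**
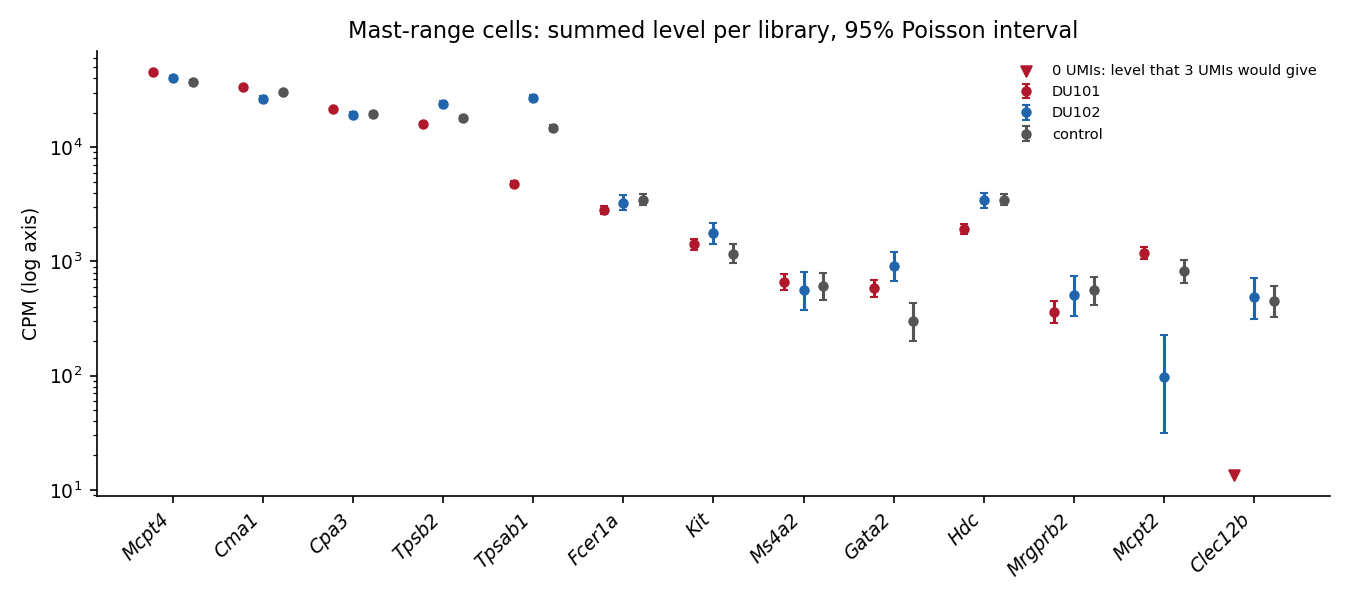
Summed level in mast-range cells in CPM (log axis) for 13 genes, with exact Poisson 95% intervals, for DU101 (44 cells), DU102 (13 cells) and the control (15 cells). Tpsab1 in DU101 and Mcpt2 in DU102 lie apart from the other libraries; the triangle marks the level that 3 UMIs of Clec12b would give in DU101, where none was found.

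Tpsab1, which encodes the tryptase mMCP-7, was low in DU101 mast-range cells. It had a median of 5.5 UMIs per cell in DU101 (0 to 212, detected in 37 of 44 cells), 68 in DU102 (6 to 351, 13 of 13) and 76 in the control (0 to 275, 13 of 15). The summed level was 4740.2 CPM in DU101, 27065.5 CPM in DU102 and 14760.5 CPM in the control. DU101 was thus 0.321 times the control (0.296 to 0.348), 3.11-fold lower, and 0.175 times DU102 (0.162 to 0.190), 5.71-fold lower. DU102 was 1.83 times the control (1.70 to 1.98). The Tpsab1 UMIs of the cell with the most were then taken out in each library, with the totals of the range left whole. This gave 0.321 for DU101 over the control, 1.71 for DU102 over the control and 0.188 for DU101 over DU102.

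The neighbouring tryptase gene Tpsb2, which encodes mMCP-6, had the same order of libraries with smaller ratios. It stood at 15976.3 CPM in DU101, 23923.8 CPM in DU102 and 17914.2 CPM in the control, with ratios of 0.892 (0.841 to 0.946) for DU101 over the control and 0.668 (0.626 to 0.713) for DU101 over DU102. Among cells with at least 10 UMIs of both tryptases in sum, Tpsab1 gave a median of 9.33% of the tryptase UMIs in 41 DU101 cells, 55.3% in 13 DU102 cells and 46.5% in 14 control cells. In DU101, 24 of the 41 cells were under 20% and 12 were over 30%, whereas 1 of 13 DU102 cells and 1 of 14 control cells were under 20%, and 12 cells in each of these libraries were over 30%. DU101 cells thus spanned 0 to 70.7% and overlapped the ranges of DU102 (19.4 to 84.0%) and the control (0 to 62.7%). Summed over all mast-range cells, Tpsab1 was 22.9% of tryptase UMIs in DU101 (21.7 to 24.1%), 53.1% in DU102 (51.1 to 55.0%) and 45.2% in the control (43.4 to 47.0%).

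The tryptase genes are closely related, so the 3' end of each was compared with the whole transcripts of the other in GENCODE M21. None of the 211 windows of 90 bases in the last 300 bases of Tpsab1, and none of its 276 windows of 25 bases, occurred in the Tpsb2 transcripts. Reads of the 3' end can thus be told apart by sequence in this annotation. As background, the Tpsab1 transcript is known to be reduced in C57BL/6 mice by a splice-site change. Whether all animals carried the same allele was not tested. In 1 control cell with Y-linked RNA and no Xist, Tpsab1 was higher than the control average, and log2 ratios against that cell were -2.98 for DU101 and -0.47 for DU102.

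**Figure D4:**
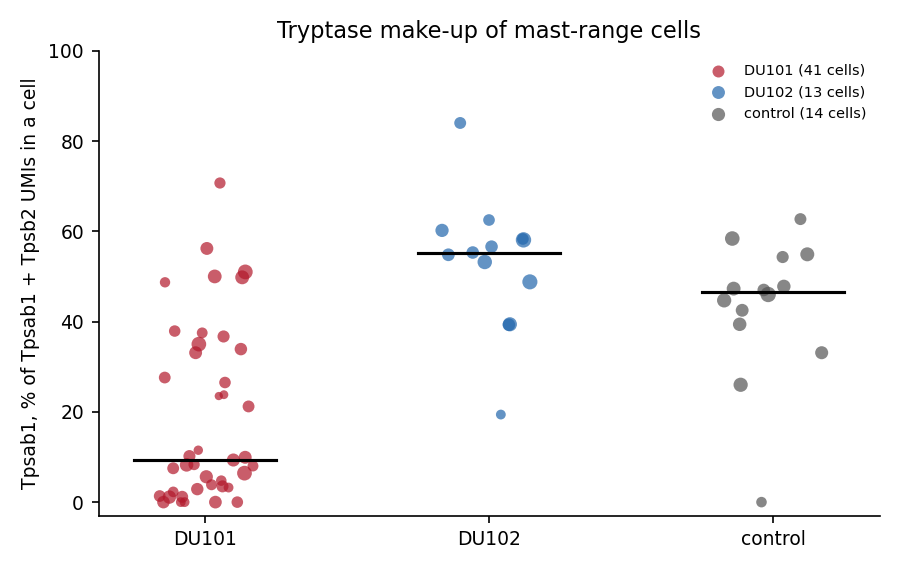
Tpsab1 as a percentage of Tpsab1 plus Tpsb2 UMIs in each mast-range cell with at least 10 such UMIs (41 DU101, 13 DU102 and 14 control cells); dots grow with the number of tryptase UMIs, and the line is the median. The median is 9.33% in DU101, 55.3% in DU102 and 46.5% in the control, and 24 DU101 cells lie under 20%.

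Clec12b, an inhibitory C-type lectin receptor, was not detected in any DU101 mast-range cell. It had 0 UMIs in 44 DU101 cells, which allows a share of cells with a UMI of up to 6.82%, 25 UMIs in 8 of 13 DU102 cells and 42 UMIs in 14 of 15 control cells. The level was 0 CPM in DU101, 488 CPM in DU102 and 451 CPM in the control. At a floor of 3 UMIs over the library, DU101 was 33.6-fold lower than the control, and 26.2-fold lower at the interval end nearest 1. Against DU102 it was 36.4-fold lower at the same floor, on 25 UMIs in all, fewer than the 30 UMIs required for a count. Thinned to 2000 UMIs per cell, Clec12b was in 0 of 36 DU101 cells, 5 of 8 DU102 cells and 10 of 15 control cells, against 0.0272, 0 and 0.0551% of DU101, DU102 and control T cell barcodes. It was at 0 in all 41 basophil-range cells.

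Other genes of the mast cell programme differed less or rested on few cells. Gata2, a required gene, stood at 585 CPM in DU101 (35 of 44 cells), 917 CPM in DU102 (11 of 13) and 300 CPM in the control (12 of 15), a ratio of 1.95 (1.29 to 3.04) for DU101 and 3.05 (1.87 to 5.06) for DU102 over the control, although against the 1 control cell with Y-linked RNA and no Xist the DU102 log2 ratio was -0.05. Hdc, which forms histamine, was at 1921.1 CPM in DU101, 3434.4 CPM in DU102 and 3486.3 CPM in the control, so DU101 was 0.551 times the control (0.476 to 0.638) and 0.559 times DU102 (0.468 to 0.670). Il1rl1, the receptor of the alarmin IL-33, was at 974 CPM in DU101, 1678.2 CPM in DU102 and 1512.5 CPM in the control, a ratio of 0.644 (0.519 to 0.802) for DU101 over the control. Hdc and Il1rl1 were lower in DU101 than in both other libraries, on 41 and 39 of 44 DU101 cells.

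Kit, the receptor of stem cell factor, was at 1416.2 CPM in DU101, 1775.7 CPM in DU102 and 1169.3 CPM in the control. It was at 0 in all basophil-range cells, in part by definition, since Kit helped set the progenitor range, which was assigned first. Fcer1a was at 2837.0, 3278.3 and 3486.3 CPM in DU101, DU102 and the control, and every ratio between libraries lay within 1.5-fold. Mcpt2, a chymase typical of mucosal mast cells, was at 1188.4 CPM in DU101, 97.6 CPM in DU102 and 826 CPM in the control. It was found in 18 of 44, 1 of 13 and 5 of 15 of these cells, and 1 cell held 55.3% of its UMIs in DU101 and 59.7% in the control. Only 3 of 276 windows of 25 bases in the last 300 bases of Mcpt2 recur anywhere in the Mcpt4 transcript, and none of 50 bases.

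Mast-range cells carried the monocyte chemokines Ccl2 and Ccl7. Ccl2 stood at 2318.7 CPM in DU101 (38 of 44 cells), 2400.2 CPM in DU102 (10 of 13) and 2231.2 CPM in the control (15 of 15), and no ratio between libraries passed 1.1. Ccl7 stood at 3122.9 CPM in DU101, 1541.6 CPM in DU102 and 2113.2 CPM in the control, a ratio of 2.03 (1.60 to 2.59) for DU101 over DU102, with 30 to 44.3% of its UMIs in 1 cell of each library. Gdf15, a stress-induced cytokine of the TGF-beta family, stood at 500 CPM in DU101 (18 cells), 351 CPM in DU102 (7 cells) and 107 CPM in the control (5 cells), a ratio of 4.66 (2.44 to 9.99) for DU101 over the control. Thinned T cell barcodes showed Ccl2 in 0.817, 0.484 and 0.772% of DU101, DU102 and control barcodes, against 29 of 36, 8 of 8 and 14 of 15 thinned mast-range cells.

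Over all genes with at least 30 UMIs in both libraries together, a gene was called higher or lower when its ratio reached 1.5 in that direction and its 95% interval did not include 1, a criterion of size and not a test. In mast-range cells, DU101 over the control gave 69 genes higher and 85 lower of 1330 measured (5.19% and 6.39%). DU102 over the control gave 38 higher and 63 lower of 624 (6.09% and 10.1%), and 42 and 53 with TMM scaling or 45 and 50 with DESeq2 size factors. DU101 over DU102 gave 99 higher and 54 lower of 1151 (8.60% and 4.69%), a split that turned to 72 higher and 78 lower with TMM scaling, which moved every log2 ratio by -0.10, and to 77 and 72 with DESeq2 size factors. Each gene's UMIs in its top cell of each library were also taken out, with the totals left whole. Then 86 of the 154 genes, 75 of the 101 and 100 of the 153 kept their call in these comparisons.

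Lists of genes are described by their counts beside those shares. Of 12 measured mast cell markers, 0 were higher and 2 lower in DU101 than in the control, Tpsab1 and Mrgprb2, with a median log2 ratio of -0.01 beside -0.000633 over all genes. Of 9 measured in DU102 over the control, 3 were higher, Tpsab1, Mrgprb1 and Kit, and 1 was lower, Mcpt2. The IgE receptor and its signalling gave 1 higher and 0 lower of 10 genes in DU101 over the control, the adaptor Lat at 188 against 53.6 CPM, and 0 of 7 in either direction in DU102 over the control. The granule and exocytosis list gave 1 higher of 14 in DU101 over the control, Mcpt8 from few cells, and 1 lower, Hdc, and 0 of 8 in DU102 over the control. Lineage transcription factors gave 3 higher and 0 lower of 7 in DU101 over the control, which were Gata2, Lmo4 and Cebpb, and 2 higher of 3 in DU102 over the control, Gata2 and Cebpb.

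Immediate-early and stress genes, which report recent stimulation as well as tissue dissociation, gave 5 higher and 1 lower of 21 in DU101 mast-range cells over the control and 5 and 5 of 19 in DU102. Over all genes measured, 5.19% were higher and 6.39% lower in DU101, and 6.09% and 10.1% in DU102. Nr4a1 was at 407 CPM in DU101, 97.6 CPM in DU102 and 107 CPM in the control. Fosb was at 550 CPM in DU101, 293 CPM in DU102 and 172 CPM in the control. Ier3 was at 760 CPM in DU101, 1522.1 CPM in DU102 and 290 CPM in the control, with 44.9% of its DU102 UMIs in 1 cell, and its DU102 log2 ratio to the control was -0.15 among cells without Elane, Mpo or Prtn3. Among the 5 lower genes in DU102, Hspa5, a chaperone, was 0.325 times (0.191 to 0.526) and Hspa1a, another chaperone, 0.489 times (0.320 to 0.728) the control level. The transcription factor Jun was at 1307.4 CPM in DU102, 2408.1 CPM in DU101 and 2606.7 CPM in the control. In all other kept cells the same 21 genes had a median log2 ratio of -0.12 for DU101 over the control, against 0.26 in the mast range.

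Class I MHC genes, which present peptides to CD8 T cells, gave 0 higher and 2 lower of 4 in DU101 mast-range cells over the control. Over all genes measured, 5.19% were higher and 6.39% lower, and a list of 4 genes is short. H2-K1 was at 603 CPM in DU101, 937 CPM in DU102 and 965 CPM in the control, and H2-D1 at 902 CPM in DU101, 1775.7 CPM in DU102 and 1362.3 CPM in the control. H2-D1 in DU101 was 0.508 times its DU102 level (0.395 to 0.658), and it was found in 41 of 44, 13 of 13 and 14 of 15 cells of DU101, DU102 and the control. Ctla2a, which encodes a cysteine protease inhibitor, was at 1715.6 CPM in DU101, 1756.2 CPM in DU102 and 3303.9 CPM in the control, and its neighbour Ctla2b at 67, 78.1 and 236 CPM. Against the 1 control cell with Y-linked RNA and no Xist, the DU101 log2 ratio of Ctla2a was 2.66. Slc6a4, the serotonin transporter, was at 255 CPM in DU101, 176 CPM in DU102 and 440 CPM in the control, lower in both treated libraries, while Tph1, which makes serotonin, was at 214, 215 and 322 CPM with intervals that span 1.

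Some of the sharpest ratios came from 1 or 2 cells. In DU101 mast-range cells, Mcpt8 reached 349 UMIs, of which 301 were in 1 cell and 42 in another, against 2 UMIs in DU102 and 3 in the control. Its ratio for DU101 over the control was 48.5 with that cell. It was 10 without the Mcpt8 UMIs of each library's top cell, with the totals left whole. The neutrophil marker genes S100a8 and S100a9 together had 3939 UMIs in DU101 cells, 237 in DU102 cells and 95 in control cells, and 2 DU101 cells, 1 of them in the basophil range, held 85.1% of the DU101 UMIs. The list of 13 neutrophil markers summed to 12128.7 CPM in DU101 cells, 2693.4 CPM in DU102 cells and 397 CPM in control cells, with UMIs in 72 of 77, 28 of 28 and 27 of 32 cells. Ly6g was at 0 in DU102 and the control, as were Mmp8 in DU102 and Retnlg and Ltf in the control. In all other kept cells the list stood at 60076.0, 99104.9 and 18877.0 CPM in DU101, DU102 and the control, and its part in other results was not tested. Macrophage and monocyte markers summed to 1764.6 CPM in DU101 cells, 1048.8 CPM in DU102 cells and 903 CPM in control cells, with UMIs in 72 of 77, 25 of 28 and 32 of 32 cells. The 12 T cell markers summed to 12.3 CPM in DU101 (4 cells), 103 CPM in DU102 (7 cells) and 223 CPM in the control (14 cells), with 37.8% of the control UMIs in 1 cell. Cd3d, Cd4, Cd8b1 and Cd5 were at 0 in all 3 libraries. Cd3e was at 0 because the choice of cells required it, as was C1qa among the macrophage and monocyte markers. The part of these RNAs in the results was not tested.

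The summed level of Prss34 was higher in basophil-range cells of both treated libraries than of the control, and rested on few cells. Neither the choice of cells nor the range used this gene. Mcpt8, which chose the cells and set the range, is given as description. It had a median of 8 UMIs per cell in 23 DU101 cells (1 to 509), 8.5 in 8 DU102 cells (1 to 360) and 4 in 10 control cells (1 to 218), and the cells of the libraries overlapped. Its summed level was 13524.4 CPM in DU101, 11917.1 CPM in DU102 and 4297.8 CPM in the control. Prss34 was at 11584.5 CPM in DU101, 12323.4 CPM in DU102 and 3009.8 CPM in the control, a ratio of 3.85 (3.34 to 4.45) for DU101 and 4.09 (3.50 to 4.80) for DU102 over the control, and was detected in 11 of 23, 3 of 8 and 3 of 10 cells. A single cell held 34.4% of the Mcpt8 UMIs in DU101, 68.2% in DU102 and 66.7% in the control. For Prss34, 1 cell held 368 of 1266 UMIs in DU101, 71.6% of the UMIs in DU102 and 62% in the control. Over all 41 basophil-range cells the median of Prss34 was 0 UMIs. The Prss34 UMIs of each library's top cell were taken out with the totals left whole. The ratio of Prss34 to the control was then 7.19 for DU101 and 3.06 for DU102. The totals still held these cells' other RNA, and the control cell had 22630 of its range's 76085 UMIs. Against the 1 control basophil with Y-linked RNA and no Xist, the DU102 log2 ratio of Mcpt8 was -0.39. Thinned to 2000 UMIs, Prss34 was in 50% of DU101, 37.5% of DU102 and 30% of control basophil-range cells, against 0.191, 0.0372 and 0% of DU101, DU102 and control T cell barcodes.

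Detection of Prss34 split the basophil range into cells of unlike content in every library, a split chosen after its values were seen and given as description. Cells with Prss34 had 8 to 509 Mcpt8 UMIs in DU101 (median 41), 15 to 360 in DU102 (129) and 5 to 218 in the control (70). Cells without it had 1 to 11 in DU101 (median 2.5), 1 to 10 in DU102 (5) and 1 to 18 in the control (3). Cells with Prss34 held 97.09% of the range's Mcpt8 UMIs in DU101, 95.45% in DU102 and 89.6% in the control. They were deeper as well, with medians of 5813, 7326 and 14007.0 UMIs in DU101, DU102 and the control, against 3077, 3914 and 4380 UMIs in cells without Prss34.

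A few genes picked after their values were seen were found almost only in cells with Prss34, often in 1 of them. Ctsg, cathepsin G, had 85 UMIs in DU101, 60 in DU102 and 52 in the control in cells with Prss34, and 1, 1 and 0 UMIs in cells without it, with 57 of the 60 DU102 UMIs in 1 cell. Ms4a3, a marker of granulocyte progenitors, had 26, 6 and 26 UMIs with Prss34 in DU101, DU102 and the control, and 1, 0 and 0 without. Top2a, a topoisomerase of dividing cells, had 23, 17 and 5 UMIs with Prss34 in DU101, DU102 and the control and none without, with 19 of the 23 DU101 UMIs and all 17 DU102 UMIs in 1 cell each. Sox4 had 36 UMIs in DU101 and 20 in the control in cells with Prss34, and none in DU102 or in cells without it.

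The chemokine sum was higher in cells without Prss34. Ccl3, Ccl4 and Ccl6, which attract leukocytes, summed to 21217.2 CPM in DU101, 15541.2 CPM in DU102 and 30177.7 CPM in the control in cells without Prss34, against 3306.5, 6492.0 and 2770.3 CPM in cells with it. Ccl3 alone did not keep this direction in DU102, at 3502.2 CPM without Prss34 and 4110.3 CPM with it. The RNA-destabilising protein gene Zfp36 stood at 2056.9 CPM in DU101, 1915.3 CPM in DU102 and 4042.2 CPM in the control without Prss34, against 312, 230 and 412 CPM with it. Lilr4b stood at 1831.5, 1696.4 and 2561.1 CPM without Prss34 in DU101, DU102 and the control, against 556, 884 and 114 CPM with it. The direction was the same in the 3 libraries for the chemokine sum, Zfp36 and Lilr4b, genes picked after their values were seen, on 11, 3 and 3 cells with Prss34 and 12, 5 and 7 without in DU101, DU102 and the control.

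**Figure D5:**
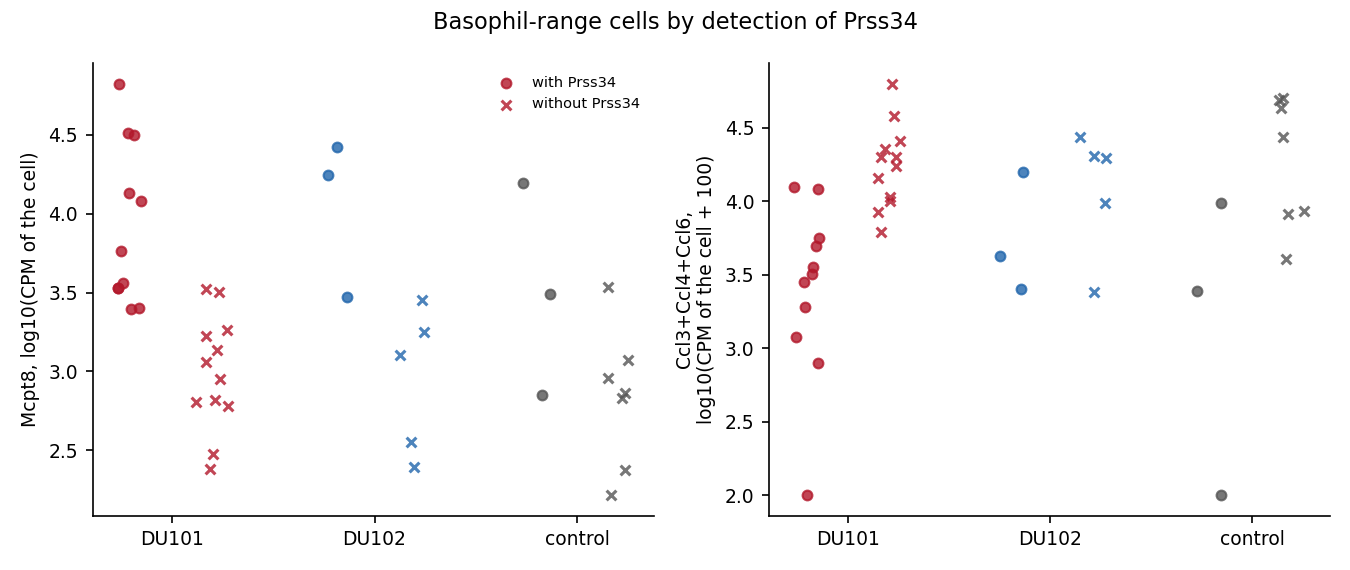
Left, the log10 of Mcpt8 CPM in each basophil-range cell; right, the log10 of the summed CPM of Ccl3, Ccl4 and Ccl6 plus 100, in DU101, DU102 and the control, with dots for cells with Prss34 and crosses for cells without. Most Mcpt8 lies in cells with Prss34, while the chemokine sum has medians of 18561.5, 19573.0 and 27158.1 CPM in DU101, DU102 and control cells without it.

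Over the basophil range as a whole, DU101 over the control gave 94 genes higher and 81 lower of 777 measured in the basophil range (12.1% and 10.4%), a split of 72 and 98 with DESeq2 size factors, which moved every log2 ratio by -0.13. DU102 over the control gave 61 higher and 59 lower of 490 (12.4% and 12.0%), and DU101 over DU102 gave 48 higher and 53 lower of 681 (7.05% and 7.78%). Each gene's top-cell UMIs were also taken out with the totals left whole. Then 125 of 175, 70 of 120 and 47 of 101 genes kept their call in these comparisons.

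Chemokine levels in the whole basophil range differed in both directions. Ccl3 stood at 2973.9 CPM in DU101 (22 of 23 cells), 3859.5 CPM in DU102 (8 of 8) and 6151.0 CPM in the control (9 of 10), a ratio of 0.483 (0.418 to 0.558) for DU101 and 0.627 (0.524 to 0.749) for DU102 over the control. Ccl4 stood at 4200.1 CPM in DU101, 3340.4 CPM in DU102 and 7163.0 CPM in the control, a ratio of 0.586 (0.517 to 0.665) and 0.466 (0.386 to 0.560) for DU101 and DU102 over the control. Ccl6 took the opposite course, at 1949.1 CPM in DU101, 3024.4 CPM in DU102 and 1130.3 CPM in the control. Cxcl2, a neutrophil attractant, had 0 UMIs in 23 DU101 and 8 DU102 cells, which allows shares of up to 13% and 37.5%, and 36 UMIs in 5 of 10 control cells, 77.8% of them in 1 cell. Thinned T cell barcodes contained Ccl3 in 9.66, 7.49 and 8.88% of cases in DU101, DU102 and the control, and thinned basophil-range cells in 90.9, 100 and 90%. For Cxcl2 the T cell shares were 7.51, 8.16 and 10.6% in DU101, DU102 and the control.

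Cytokine transcripts were sparse. Il4, the main type 2 cytokine of basophils, had UMIs in 7 of 23 DU101 cells, 3 of 8 DU102 cells and 5 of 10 control cells, and Il6 was, like Il4, part of the range's definition, so that both are description. Il6 had UMIs in 11 of 23, 1 of 8 and 7 of 10 cells of DU101, DU102 and the control, with too few UMIs in DU102 for a count. Thinned, Il6 was in 9 of 22 DU101, 0 of 8 DU102 and 3 of 10 control cells, against 0.0817, 0.0745 and 0% of DU101, DU102 and control T cell barcodes. Osm, oncostatin M, stood at 412 CPM in DU101, 609 CPM in DU102 and 1235.5 CPM in the control, a ratio of 0.333 (0.228 to 0.480) for DU101 over the control. Hgf, hepatocyte growth factor, stood at 458 CPM in DU101, 835 CPM in DU102 and 342 CPM in the control, and Csf1, a macrophage growth factor, at 631, 474 and 683 CPM.

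The summed level of the IgE receptor alpha chain was higher in basophil-range cells of both treated libraries. Fcer1a stood at 1153.0 CPM in DU101, 1196.2 CPM in DU102 and 473 CPM in the control, a ratio of 2.44 (1.67 to 3.63) for DU101 and 2.53 (1.62 to 3.97) for DU102 over the control. Fcer1g, the signalling gamma chain, stood at 2278.5, 1986.2 and 1485.2 CPM in DU101, DU102 and the control, and was called higher in DU101 alone, while Ms4a2, a required gene, stood at 1034.0, 1218.8 and 697 CPM and was called higher in DU102 alone. The intervals of DU101 over DU102 spanned 1 for both genes. Of the IgE list, 2 of 5 measured genes were higher in DU101 and 2 of 4 in DU102 than in the control, beside 12.1% and 12.4% of all genes measured, and 0 were lower. Of the DU102 genes, Ms4a2 was one that chose the cells. Fcer1a was also higher in cells with Prss34, at 1504.2 CPM in DU101, 1651.8 CPM in DU102 and 572 CPM in the control, than in cells without it, at 423, 547 and 339 CPM. In the same order of libraries, its per-cell medians were 9, 10 and 10 UMIs with Prss34 and 1, 2 and 1 without. Control cells of 14007 and 22630 UMIs held a large part of the 76085 UMIs of the control range. Each had 10 Fcer1a UMIs and 1 Cd200r3 UMI. Cd200r3, an activating receptor and part of the range's definition, stood at 705 CPM in DU101, 813 CPM in DU102 and 263 CPM in the control.

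Immediate-early and stress genes were lower in basophil-range cells of DU101 than of the control. Of 20 measured, 2 were higher and 13 lower, beside 12.1% and 10.4% of all 777 genes. The median log2 ratio was -0.96, beside 0.13 over all 777 genes and -0.11 for the same genes in all other kept cells. Dusp1, a phosphatase of MAP kinases, had 0 to 13 UMIs per cell in DU101 (11 of 23 cells), 0 to 10 in DU102 (5 of 8) and 0 to 48 in the control (7 of 10). It stood at 430 CPM in DU101, 587 CPM in DU102 and 2339.5 CPM in the control, a ratio of 0.184 (0.130 to 0.255) for DU101 and 0.251 (0.159 to 0.380) for DU102 over the control. Fos stood at 732 CPM in DU101, 203 CPM in DU102 and 1472.0 CPM in the control, with UMIs in 14 of 23, 2 of 8 and 9 of 10 cells. Against the 1 control basophil with Y-linked RNA and no Xist, the log2 ratio of Dusp1 was 1.01 for DU101 and that of Fos 1.51 for DU102, the reverse of the ratios against all control cells.

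In DU102 the same list gave 1 higher and 6 lower of 19 genes, beside 12.4% and 12.0% of all genes. The median was -0.26, beside 0.01 over all genes and -0.40 in all other kept cells. Egr1 stood at 587 CPM in DU102, 604 CPM in DU101 and 1577.2 CPM in the control. The 1 higher gene, Hspa5, stood at 2573.0 CPM in DU102 and 250 CPM in the control, with 82.5% of its DU102 UMIs in 1 cell. NF-kB targets gave 0 higher and 3 lower of 4 in DU101 over the control, beside 12.1% and 10.4% of all genes, among them Nfkbia at 1409.2 against 3075.5 CPM, and 0 and 1 of 4 in DU102, Sqstm1 at 181 against 657 CPM.

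The 8 highest basophil-range genes of DU101 over the control were S100a9, Ngp, S100a8, Retnlg, Camp, Ltf, Wfdc21 and Lcn2, all known neutrophil granule or secreted proteins, and 1 cell held 95.6% of the S100a8 UMIs. The lowest included Cd74, H2-Eb1, H2-Aa and Fabp5, of which 1 control cell held nearly all UMIs, and Gzmb, granzyme B, at 64.1 CPM in DU101, 22.6 CPM in DU102 and 749 CPM in the control, with 50.9% of the control UMIs in 1 cell. Lmo4, a transcription cofactor, stood at 90.3 CPM in DU102, 650 CPM in DU101 and 1038.3 CPM in the control, in 3 of 8, 18 of 23 and 9 of 10 cells of the libraries in that order.

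Besides the genes already described, DU101 set against DU102 in the mast range gave 7 higher and 2 lower of 21 immediate-early and stress genes and 6 higher and 0 lower of 8 cell cycle genes, beside 8.60% and 4.69% of all genes. By the end of the interval nearest 1, the highest were Mcpt8, Hist1h2ae, Mcpt2 and Retnlg and the lowest Tpsab1, Sapcd1, Cirbp and Slc6a6. Nr4a1 was 4.17 times (1.72 to 13.1) and Hspa5 2.75 times (1.74 to 4.58) higher in DU101, and Ier3 0.499 times (0.379 to 0.661) the DU102 level. Tubb5, a tubulin, stood at 299 CPM in DU101 and 58.5 CPM in DU102. Pla2g7, which degrades platelet-activating factor, stood at 585 CPM in DU101, 1229.4 CPM in DU102 and 729 CPM in the control, and Slc6a6, the taurine transporter, at 130, 429 and 204 CPM. In the basophil range, Fos was 3.6 times (1.81 to 8.17) and Lmo4 7.20 times (2.69 to 27.1) higher in DU101, and Ccl9 0.530 times (0.406 to 0.694) the DU102 level.

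Mast-range and basophil-range cells differed in the same direction in every library for many genes, 90 higher in the mast range and 120 in the basophil range. These are described without a test because marker genes made the ranges. The criterion was not the one used between libraries. It required at least 10 UMIs in each library and an interval that did not include 1 in any of them, with no 1.5-fold limit. The number of genes measured is not given, so the counts cannot be read as shares. Ly6a was at 1081.2 CPM in DU101, 2048.9 CPM in DU102 and 1308.7 CPM in the control in mast-range cells, and at 9.15, 0 and 0 CPM in basophil-range cells. Ifitm1 was at 4886.4 CPM in DU101, 3949.8 CPM in DU102 and 3640.7 CPM in the control in basophil-range cells, and at 35.7, 0 and 42.9 CPM in mast-range cells. Hpgds, the prostaglandin D synthase, was at 286, 449 and 257 CPM in mast-range cells of DU101, DU102 and the control, against 9.15, 0 and 13.1 CPM in basophil-range cells. Il18rap, a chain of the IL-18 receptor, was at 247, 474 and 237 CPM in basophil-range cells and at 0 in mast-range cells of all libraries. Chemokines were divided between the ranges, with Ccl2 at 0, 0 and 26.3 CPM in basophil-range cells and Ccl3 at 31.3, 0 and 64.4 CPM in mast-range cells of DU101, DU102 and the control.

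Transcripts of dividing cells were found in both ranges. Mki67, a nuclear protein of dividing cells, had UMIs in 6 of 44 DU101 mast-range cells (13.6%, exact interval 5.17 to 27.4%), 1 of 13 in DU102 (7.69%, 0.195 to 36.0%) and 2 of 15 in the control (13.3%, 1.66 to 40.5%). In the basophil range it was in 4 of 23 DU101 cells, 1 of 8 DU102 cells and 0 of 10 control cells, which allows a share of up to 30%. The 27 genes of the cell cycle list summed to 6299.4 CPM in DU101, 3902.7 CPM in DU102 and 4011.9 CPM in the control in the mast range, with 27.5 to 32.6% of these UMIs in 1 cell. In the basophil range they summed to 3211.8 CPM in DU101, 7132.2 CPM in DU102 and 2168.6 CPM in the control, with 82.3% of the DU102 UMIs in 1 cell, and 0 of 5 measured were higher and 4 lower in DU101 than in DU102, beside 7.05% and 7.78% of all genes. Of 9 measured in the mast range, 6 were higher and 1 lower in DU101 than in the control, beside 5.19% and 6.39% of all genes, with Birc5 at 165 against 32.2 CPM and Pcna at 58.1 against 193 CPM.

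The remaining 24 cells included some of unlike content. The 4 progenitor-range cells held 1 cell of 33009 UMIs in DU101, 1 of 12689 in DU102, and 2 of 67124 and 55935 UMIs in the control, with Car1 and Klf1, which mark the erythroid line, at 70 UMIs in sum in the DU101 cell, 20 in the DU102 cell, and 128 and 202 in the control cells. The 2 control cells alone gave 37.0% of the UMIs of the 32 control cells, which is why genes were compared within ranges. Over all 137 cells, DU101 over the control gave 279 genes higher and 281 lower of 3050 (9.15% and 9.21%), DU102 over the control 234 and 213 of 2025 (11.6% and 10.5%), and DU101 over DU102 135 and 159 of 2297 (5.88% and 6.92%). Without the progenitor range, these called genes numbered 249 for DU101 and 206 for DU102 over the control. Of the 20 cells without a range, 16 had both Ms4a2 and Gata2, 12 had Cd200r3 without Mcpt8, 17 had Cpa3 and 17 had Ccl3. In DU102, 1 of them held all 359 UMIs of the eosinophil granule genes Prg2 and Epx, in the control 1 held 711 of 718 UMIs of the granzyme gene Gzma, and in DU101 1 held all 35 UMIs of the dendritic cell receptor gene Ccr7.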

How the data were processed

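Single-cell RNA was measured in 1 library per group. The deposited values are raw UMI counts per gene and barcode, written by Cell Ranger version 6.0.0, per the file headers. The submitters' processing notes list version 2.1.1 of that tool and the mm10 build, and no source used here gives the gene annotation release. The counts were used as deposited, after the barcode filter given above, with pandas 2.3.3, SciPy 1.17.1 and NumPy 2.4.6 in Python 3.11.15, and drawn with matplotlib 3.10.9. Doublets were called with scanpy 1.11.5 and left in. TMM factors came from edgeR 4.0.16 and size factors from DESeq2 1.42.0 in R 4.3.3, used for scaling alone. Counts were summed over the cells of a library and range, and ratios carry exact conditional Poisson intervals. The code was tested on simulated counts.

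Named genes were the 8 highest and 8 lowest per comparison by the interval end nearest 1, with at least 30 UMIs and 50 CPM, up to 4 per list, the 20 defining genes, and the markers and lists. This was applied within the mast and basophil ranges after 2 control cells were seen to hold 37.0% of the control UMIs. Genes named for the split by Prss34, the contrast of the ranges and single cells were chosen after their values were seen. The members and lists were chosen with earlier results of these data known. Alternatives added after seeing the data were taking out each gene's UMIs in its top cell (totals unchanged), the mast range alone, and leaving out the progenitor range. Depth limits a count of 0 to the share or level that 3 counts would give.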

Additional observations from a re-analysis of the deposited data

How the results depend on the processing

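Shares of all members and of the basophil range stayed within their intervals under every alternative run (35 values each), as did 33 of 35 for the mast range. With the control limited to cells that had Y-linked transcripts but lacked Xist, the mast ratios were 5.74 (0.978 to 232) for DU101 and 2.07 (0.31 to 87.8) for DU102 over the control, on 1 control cell. Counts of genes past 1.5-fold moved by over 1.5 times in 50 of 159 settings, and of the named genes 205 values moved, 40 reversed and 1385 held. Below, counts are given for DU101 over control, DU102 over control and DU101 over DU102 as D1C, D2C and D12, and reversed genes as log2 ratios.

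A rule sum of at least 10 gave 284 for D2C, and at least 3 rule genes gave 262 for D1C and 166 for D2C. Elane, Mpo and Prtn3 at 0 gave 190 for D1C and 133 for D2C, in the mast range 57 for D2C and 72 for D12, and in the basophil range 88, 51 and 52. It reversed, in the mast range, Ier3 (-0.147) and Ccl4 (-2.27) in D2C and Mcpt8 (-2.15) and Ier3 (1.77) in D12, and in the basophil range Cd74 (2.54), Fabp5 (0.223) and H2-Aa (0.375) in D1C, Hmgb2 (-0.573) and Cxcl2 (0.0123) in D2C, and S100a9 (-0.705) and H2afz (0.822) in D12. Leaving Cd3e, Cd79a and C1qa unused gave 999 for D1C and 471 for D12, and in the mast range 256 for D1C and 186 for D2C. It reversed, in the mast range, Mcpt8 (-0.25) in D1C, Cd52 (0.00883) in D2C, and Retnlg (-1.76), S100a8 (-3.13), Lyz2 (-0.429) and Isg15 (0.0307) in D12.

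The basophil range alone gave 175, 120 and 101, the mast range alone 154, 101 and 153, and all cells without the progenitor range 249 for D1C and 206 for D2C. Limiting the control to its Y-linked cells reversed, in the mast range, Cstdc4 (-0.447), Stfa1 (-1.3) and Ctla2a (2.66) in D1C and Gata2 (-0.0544) and Tpsab1 (-0.467) in D2C, and in the basophil range Dusp1 (1.01) in D1C and Mcpt8 (-0.385) and Fos (1.51) in D2C.

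A minimum of 10 UMIs gave 882, 724 and 452, in the mast range 273 for D1C and 164 for D2C, and in the basophil range 325, 230 and 183. No minimum gave 979, 826 and 520, in the mast range 330, 206 and 276, and in the basophil range 403, 309 and 268. Cells thinned to 2000 UMIs gave 99, 63 and 80, in the mast range 53, 31 and 46, and in the basophil range 65, 37 and 39. Thinning reversed S100a9 (-0.859) in the mast range in D2C, and in the basophil range Retnlg (-0.138) and Wfdc21 (-0.401) in D1C and Sox4 (-0.237) in D12. Taking out each gene's top-cell UMIs, with the totals unchanged, gave 257 for D2C and 77 for D2C in the basophil range. It reversed AW112010 (0.126) in D2C and Isg15 (0.0894) in D12 in the mast range, and in the basophil range Ngp (-0.107), Cd74 (1.94), Fabp5 (0.0182) and H2-Aa (0.215) in D1C and S100a8 (-0.472), S100a9 (-1.41), Ngp (-1.62) and H2afz (1.22) in D12. Cells weighted alike reversed Ccl4 (-0.616) in the mast range in D2C. The cause of these shifts was not tested, beyond the smaller or larger number of cells or genes that a setting leaves.

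No paired analysis was possible because each group is 1 library. Few cells and few UMIs limit what can be seen: DU102 and the control hold 13 and 15 mast-range cells and 8 and 10 basophil-range cells.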
